A study of Homo sapiens with 12 samples.

Results

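Of the 51446 regions captured by a G-quadruplex pull-down from the DNA of HEK 293T cells, 1187 (2.31%) had their centre inside a compact single-gene locus. Such a locus is an autosomal transcribed interval of under 20000 bases that holds exactly 1 gene identifier in the RNA tables of the same study. Loci of long intergenic noncoding genes with LINC symbols and of zinc-finger genes with ZNF symbols were left out, which removed 80 further peaks. The 1187 peaks lay in 1048 of 17773 compact loci, a share of 5.90% (95% exact binomial interval 5.55 to 6.25). Membership used the position of a peak and neither its score nor any RNA value. At the length limit, UBE2J2 (19977 bases, peak score 12.45) was the longest locus inside and APOL6 (20015 bases, peak score 10.04) the next one outside.

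HEK 293T cells descend from human embryonic kidney and make the large T antigen of SV40. Pull-down of G-quadruplexes with a small molecule was done on purified and annealed genomic DNA in 2 samples, beside 2 input samples, so the DNA had no chromatin when it was captured. RNA was sequenced from 2 samples each of cells kept in DMSO for 3 h, the control of all RNA comparisons, and of cells given PDP at 1 µM, harvested after 3 h, 24 h or 72 h. PDP is known here by its code name, and changes at 24 h and 72 h include any change with time in culture. The labels do not say whether the 2 samples of a group came from separate cultures. The authors' files give 1 merged peak list and 1 pooled FPKM (fragments per kilobase of transcript, scaled to library size) per gene and condition, so no value has a spread between replicates and the depth of each library is unknown. All 51446 peaks were listed in both replicate peak lists. In the control, VIM (259 FPKM), NEFM (39.1), KRT8 (35.6), NEFL (23.1) and KRT18 (17.6), transcripts typical of this line, were high and PAX2, a kidney transcription factor, was at 0.896 FPKM. Markers of other cells were at 0 for MYH7 and PECAM1, at 0.00705 for PTPRC, 0.0869 for ALB and 0.654 for GFAP, while the collagen gene COL1A1 was at 12.6 FPKM.

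A G-quadruplex is a stack of planar guanine tetrads that a DNA strand can form when it holds several nearby runs of guanine. Runs of guanine are common at human promoters, and ligands that hold the structure are used to capture it or to disturb transcription near it. A run of cytosine marks a run of guanine on the opposite strand. Compact loci bring the promoter, the gene body and the transcript end within a short stretch of DNA, and so let peaks be placed against both ends of 1 gene.

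Promoter sequences of genes with a peak in their locus show what such runs look like. RefSeq promoter windows (GRCh38.p14, 250 bases before to 50 after a transcript start) were searched on both strands for 4 runs of at least 3 G, or of at least 3 C, with 1 to 7 bases between runs. Among the 62 genes named by the selection rule, 42 had such a window and 12 of these held the pattern, against 24.9% of all 33725 autosomal windows. The matches below, written 5′ to 3′ on the gene's strand with the runs in capitals, belong to ETS2, the single compact locus with a peak from inside it on a patterned window of its own gene (chosen after its values were seen), then to genes called in the RNA tables (HES2, PIANP, CDKN1A, SLC17A7, SLC4A3) and to loci with a very high score or 3 peaks (SHISA7, IGLON5).
ETS2: CCCttCCCtctcctCCCgcttctCCCC
HES2: GGGcGGGGcGGGGcGGG
PIANP: CCCggCCCtgCCCttCCC
CDKN1A: GGGccccGGGGaGGGcggtcccGGG
SLC17A7: GGGaGGGGcctggtGGGGccGGGG
SLC4A3: GGGtGGGGtGGGGGGaaGGG
SHISA7: CCCtcgccaCCCtCCCCtCCCC
IGLON5: GGGcGGGaGGGGtaGGGG

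The ETS2 match lies on the plus strand at chr21:38805733-38805759, from 196 to 170 bases before a RefSeq start that is 622 bases inside the ETS2 locus. Its middle is 7.5 bases from the centre of a peak (chr21:38805526-38805951, score 17.45). ETS2 encodes an ETS-family transcription factor. For the other 7 genes the match was not under a peak centred inside the locus. The nearest such peak centre was 1021.5 bases away for PIANP, 2550.5 for IGLON5, 2957 for CDKN1A, 3574 for SLC17A7, 6180 for HES2, 6402 for SLC4A3 and 8917.5 for SHISA7. Peaks centred outside the locus were not searched here, and the SHISA7 and IGLON5 matches lie just outside their loci. The matches lie at chr1:6419960-6419976 (HES2, minus strand), chr12:6700557-6700574 (PIANP, minus), chr6:36678598-36678622 (CDKN1A, plus), chr19:49441588-49441611 (SLC17A7, minus), chr2:219630923-219630942 (SLC4A3, plus), chr19:55443345-55443366 (SHISA7, minus) and chr19:51311525-51311542 (IGLON5, plus). A match is a run of letters in the reference and not a measured structure.

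Peaks were rare at promoter windows, in compact loci as elsewhere, so the few that touched one are shown too. Of 3948 windows of the compact loci's own genes, 8 (0.203%, 0.0875 to 0.399) were overlapped by a peak inside the locus, and these belonged to 7 genes: ETS2, FXYD3, IL36RN (2 windows), LGALS3BP, RP11-357K6.1, SSTR3 and ZSCAN5B, all named here because they are the whole of that count. With any peak counted, inside the locus or not, 18 of the 3948 windows (0.456%, 0.270 to 0.720) were overlapped, beside 186 of all 33725 autosomal windows (0.552%, 0.475 to 0.636), and these intervals overlap. ETS2 was the gene among the 7 whose overlapped window held the pattern. With windows of any RefSeq gene included, peaks of compact loci overlapped 15, of which 5 held the pattern. The 250 bases before the starts of SSTR3 (a somatostatin receptor, chr22:37212478-37212727, minus strand) and IL36RN (an antagonist of interleukin-36 signalling, chr2:113058388-113058637, plus strand) are printed as a pair without the pattern, with the bases inside the peak in capitals.
SSTR3: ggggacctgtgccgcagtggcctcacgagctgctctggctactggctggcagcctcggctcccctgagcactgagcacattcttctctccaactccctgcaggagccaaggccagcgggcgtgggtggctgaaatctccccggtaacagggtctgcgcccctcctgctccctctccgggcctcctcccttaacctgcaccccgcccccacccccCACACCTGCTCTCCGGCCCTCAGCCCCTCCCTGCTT
IL36RN: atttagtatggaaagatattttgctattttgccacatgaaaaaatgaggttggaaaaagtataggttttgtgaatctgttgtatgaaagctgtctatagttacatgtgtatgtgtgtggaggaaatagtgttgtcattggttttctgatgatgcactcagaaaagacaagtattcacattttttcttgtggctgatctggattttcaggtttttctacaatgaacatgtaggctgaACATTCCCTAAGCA

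The SSTR3 stretch holds 12 runs of at least 3 C and 5 of at least 3 G, yet no 4 of them lie within the allowed spacing. Its peak (chr22:37212111-37212513, score 19.3) covers the last 36 of these bases and extends into the gene. The IL36RN stretch holds 1 run of C and none of G, and its peak (chr2:113058624-113059026, score 11.15) covers the last 14 bases. Most of both peaks therefore lies outside the printed bases, and peak sequence beyond the promoter windows was not analysed here.

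Peak density in compact loci was slightly higher than in long single-gene loci, but this depended on the length limit. The 57.8 Mb of compact loci held 20.5 peaks per Mb (95% exact Poisson interval 19.4 to 21.7). Single-gene loci of 20000 bases or more, with LINC and ZNF loci kept in, held 4720 peaks, or 18.6 per Mb (18.1 to 19.1), a ratio of 1.10 (95% exact interval 1.03 to 1.18). With compact loci limited to under 10000 bases their density was 18.1 per Mb (16.6 to 19.7), an interval that holds the value of the long loci. Multi-gene loci of that length gave 18.3 per Mb (ratio 1.12, 1.06 to 1.19), whereas multi-gene loci under 20000 bases, at 21.0 per Mb (18.9 to 23.4), could not be told from the compact single-gene loci by their intervals (ratio 0.976, 0.865 to 1.10). Compact LINC loci held 65 peaks (25.4 per Mb, 19.6 to 32.4) and compact ZNF loci 15 (12.2 per Mb, 6.84 to 20.2). These intervals, like all below, cover counting error and no spread between samples.

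The difference from long loci was wider once the ends of the loci were set aside. At least 1000 bases from both ends, compact loci held 928 peaks in 37.6 Mb, or 24.7 per Mb (23.1 to 26.3), and long single-gene loci 18.8 per Mb (18.3 to 19.4), a ratio of 1.31 (1.22 to 1.41). With 500 bases set aside at each end the ratio was 1.27 (1.19 to 1.36), and with 2000 bases it was 1.34 (1.23 to 1.45). Setting aside 1000 bases at each end also drops every compact locus under 2000 bases, and no long locus. Those short loci had the lowest densities (4.32 to 12.3 per Mb, given below), and their part in the wider ratio was not tested. This interior comparison was chosen after the end profile had been seen.

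Density rose with locus length up to 5000 bases and then levelled. Loci under 500 bases held 6 peaks in 5549 loci, or 4.32 per Mb (1.59 to 9.41). Between 500 and 1000 bases the density was 4.50 per Mb (2.25 to 8.05), between 1000 and 2000 bases 12.3 (8.87 to 16.5) and between 2000 and 5000 bases 18.9 (16.0 to 22.1). Loci of 5000 to 10000 bases and of 10000 to 20000 bases reached 23.02 per Mb (20.5 to 25.7) and 22.98 per Mb (21.3 to 24.8). The share of loci with a peak rose from 0.108% in the shortest class to 27.4% in the longest. Accordingly, the median length was 10297 bases for loci with a peak and 939 for those without, so calls and median RNA changes of genes with and without a peak are given below also for loci of 5000 bases or more.

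**Figure D1:**
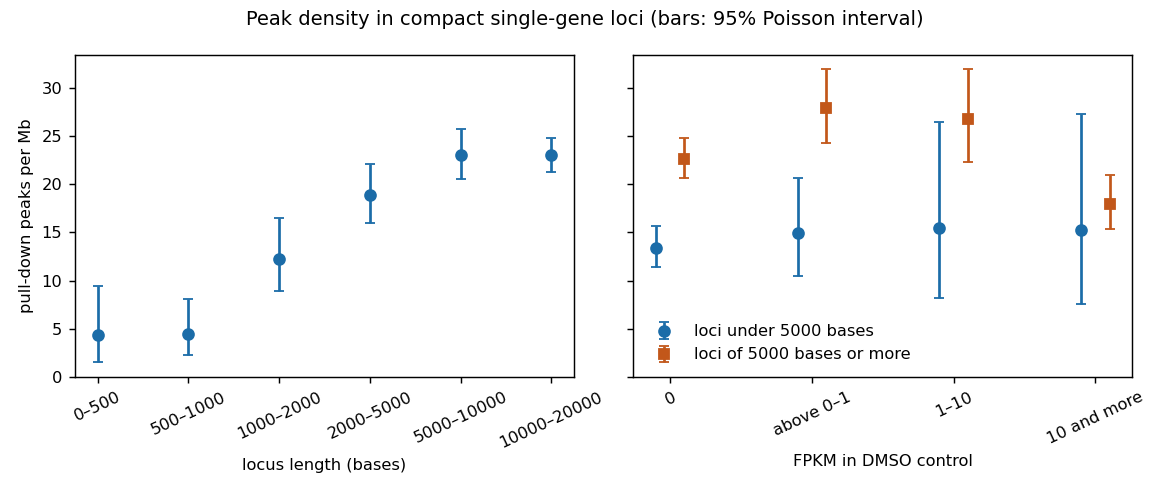
Pull-down peaks per Mb in compact single-gene loci by locus length in bases (left) and by FPKM in the DMSO control (right, loci under and of at least 5000 bases apart), with bars for the 95% exact Poisson interval. Density rises from 4.32 per Mb under 500 bases to 22.98 per Mb above 10000 bases, and among the longer loci it is lowest, 18.0 per Mb, at 10 FPKM and more.

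Expression in the control went with density in no single direction. In loci of 5000 bases or more, peaks stood at 22.6 per Mb (20.6 to 24.8) where the gene was listed at 0 FPKM, 27.9 (24.2 to 31.9) above 0 and under 1 FPKM, 26.8 (22.3 to 31.9) from 1 to 10 FPKM and 18.0 (15.4 to 20.9) at 10 FPKM and more. The most expressed class was thus below the class at 0, with a ratio of 0.795 (0.662 to 0.9496), while the ratio of the 1 to 10 FPKM class to the class at 0 was 1.18 (0.964 to 1.45). Under 5000 bases the 4 classes ran from 13.4 to 15.5 per Mb with overlapping intervals. Gene type was known for 64.6% of compact loci, fewer than the 80% needed, and a full split by type is not given. Protein-coding genes appear only as an alternative setting in the last section.

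The ends of the order of chromosomes were separated by more than counting error. Compact loci on chromosome 22 held 34.8 peaks per Mb (26.3 to 45.2), the highest value, and those on chromosome 17 held 28.8 (23.5 to 35.0). Chromosome 4, at 9.55 per Mb (6.34 to 13.8), and chromosome 18, at 9.74 (4.67 to 17.9), were lowest, and their intervals do not reach that of chromosome 22. Peaks on chromosome 19 had the highest median score, 15.55 over 93 peaks, against 11.85 over all compact loci.

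Both ends of the compact loci were poor in peaks. Within 1000 bases of either end lay 259 peaks (21.8%, 19.5 to 24.3), although 34.9% of the bases of these loci fall in that window. In single-gene loci of 20000 bases or more, 96 of 4720 peaks (2.03%, 1.65 to 2.48) lay in the window, which takes in 3.12% of their bases, so the dip was not particular to compact loci. Measured from the nearer end, density was 5.87 per Mb (4.26 to 7.88) in the first 250 bases, 12.9 (10.0 to 16.4) from 250 to 500 bases, 19.8 (16.7 to 23.2) from 500 to 1000 bases and between 23.4 and 27.2 per Mb from there to 10000 bases. Whether the peak list used here holds every peak near transcript ends was not tested.

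A RefSeq start gave a strand to 3387 compact loci (19.1%), which held 584 of the peaks in 503 loci. Of these starts, 75.6% lay within 100 bases of a locus end. In the first 250 bases from the 5′ end there were 2 peaks, or 2.36 per Mb (0.286 to 8.53), and density was 20.2 per Mb (11.8 to 32.4) from 250 to 500 bases and 26.3 (19.0 to 35.4) from 500 to 1000 bases. From the 3′ end the values in the same 3 windows were 2.36 (0.286 to 8.53), 7.14 (2.62 to 15.5) and 15.9 per Mb (10.4 to 23.3). The rise was thus steeper from the 5′ end in point values, with overlapping intervals at each distance. In the 25% of each locus next to its 5′ end lay 157 peaks (26.9%, 23.3 to 30.7) and in the 25% next to its 3′ end 100 (17.1%, 14.2 to 20.4), and these intervals do not overlap.

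**Figure D2:**
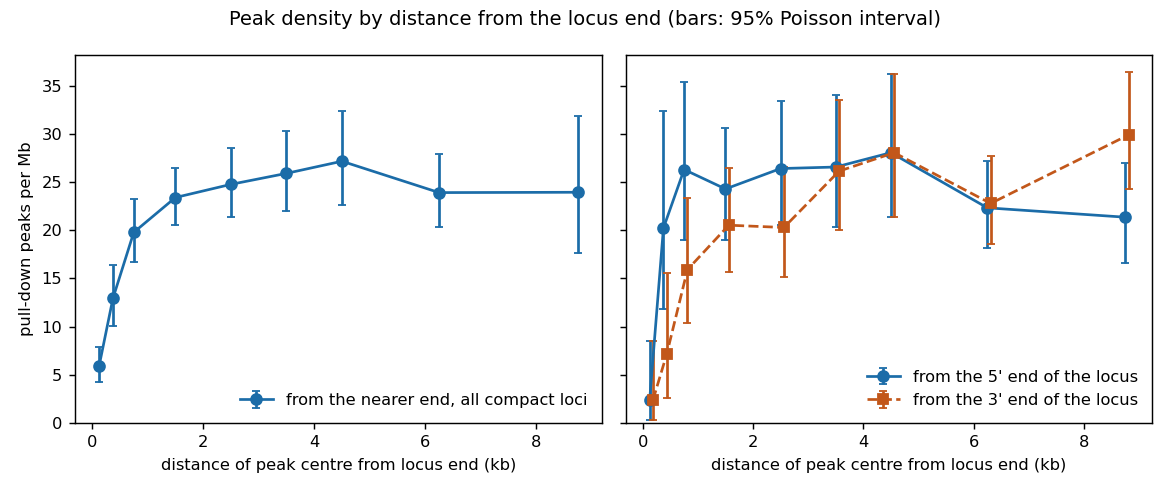
Peaks per Mb by distance in kb of the peak centre from the nearer end of all compact loci (left) and from the 5′ and 3′ ends of the 3387 loci with a strand (right), with bars for the 95% exact Poisson interval. Density is lowest in the first 250 bases at every end, 5.87 per Mb from the nearer end and 2.36 per Mb from both the 5′ and the 3′ end.

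The dip at the 5′ end was present whether or not the promoter window held the G-run pattern. With the pattern there was no peak in the first 250 bases, with a 95% exact upper bound of 16.6 per Mb, and 18.0 per Mb (4.91 to 46.2) in the next 250. Without it the values were 3.20 (0.388 to 11.6) and 21.0 per Mb (11.2 to 35.9). Split by expression, the first 250 bases held 0 peaks in genes at 1 FPKM or more (95% exact upper bound 11.8 per Mb) and 2 in genes under 1 FPKM (3.74 per Mb, 0.453 to 13.5). From 250 to 500 bases the densities were 6.42 (0.778 to 23.2) and 28.3 per Mb (15.9 to 46.8), from 500 to 1000 bases 24.2 and 27.6, and from 4000 to 5000 bases 32.0 and 24.7, with overlapping intervals at each of these distances.

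The G-run pattern was somewhat more frequent in promoter windows of loci with a peak, with intervals that just meet. It was found in 156 of 503 windows of loci with a peak (31.0%, 27.0 to 35.3) and in 733 of 2884 without (25.4%, 23.8 to 27.0), beside 24.9% of all autosomal windows. Limited to loci of 5000 bases or more the shares were 31.8% (27.5 to 36.4) and 27.7% (25.5 to 29.996), with overlapping intervals. The median GC content of these windows was 62.3% with a peak and 60.7% without, and its part in the difference was not tested.

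Scores of peaks in compact loci were slightly above those of all other autosomal peaks. The score is the authors' own, and its unit is not stated. Its median was 11.85 (95% interval 11.6 to 12.12, quartiles 9.55 and 15.55, range 6.88 to 107), against 10.915 (10.885 to 10.97) for the 47241 other autosomal peaks. Of the 1187, 703 (59.2%) were above the autosomal median of 10.95, and 24 (2.02%) were among the 500 highest autosomal scores, a set that holds 1.03% of autosomal peaks. Medians were 11.43 (11.09 to 11.92) in multi-gene loci under 20000 bases, 11.0 (10.88 to 11.12) in long single-gene loci and 11.11 (11.05 to 11.19) outside every locus. Compact LINC loci, at 11.385 (10.29 to 12.55 over 65 peaks), and compact ZNF loci, at 12.025 (9.76 to 19.7 over 15 peaks), could not be told from the compact loci described here by their intervals. The far tail lay elsewhere: the highest score in a compact locus was 107 and the highest on the autosomes 1538.4. Peak widths ran from 403 to 723 bases with a median of 410.

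**Figure D3:**
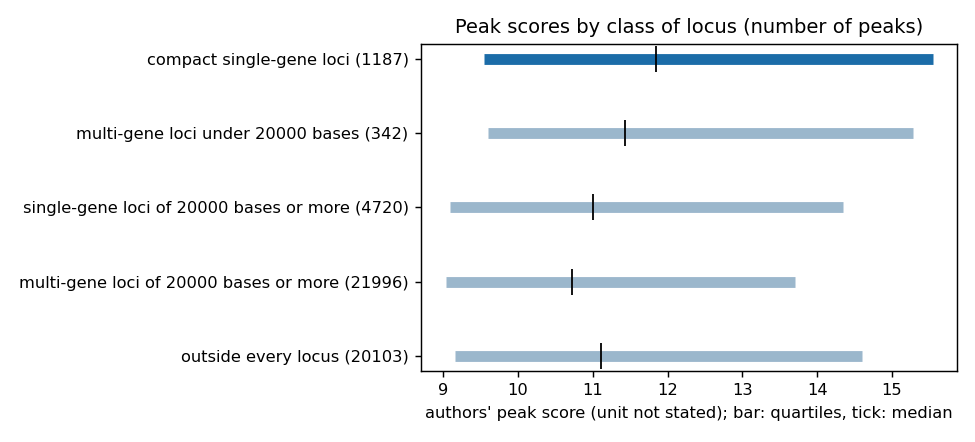
Authors' peak score (horizontal axis, unit not stated) for peaks in 5 classes of autosomal position, with a bar from the lower to the upper quartile, a tick at the median and the number of peaks beside each name. Of the 5 classes drawn, which leave out the compact LINC and ZNF loci, the compact single-gene loci have the highest median, 11.85, and the quartile bars of all 5 classes overlap.

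The 10 highest scores fell mostly in genes that this line expresses little, as did peaks of compact loci in general. Of the 1048 loci with a peak, 565 were at 0 FPKM in the control and 203 above 0 and under 1 FPKM. Low expression was not particular to loci with a peak, since 13884 of all 17773 compact loci were at 0 FPKM. A peak was found in 4.07% of loci at 0 FPKM and in 15.6% of those at 10 FPKM and more. Among loci of 5000 bases or more these shares were 20.6% and 19.3%. RP11-728K20.2 led with 107 (chr7:150003427-150003830), in a 4373-base locus and 1495.5 bases from its nearer end. RP11-932O9.4 (chromosome 15) followed with 59.45, and RP11-141O11.1 (52.4), RP11-791O21.5 (49.3) and RP1-137D17.1 (55.15) are further clone-named genes, at 0 to 0.0166 FPKM in the control. SHISA7, which encodes an auxiliary protein of neurotransmitter receptors, had a score of 56.4 (chr19:55434208-55434668) and 0.156 FPKM. UPK3A, a uroplakin of the bladder lining, had 51.4 and was listed at 0 FPKM. CASQ1, the calcium store protein of skeletal muscle, had 50.5 at 0.0852 FPKM. TBXA2R, the thromboxane A2 receptor, had 53.65 at 1.16 FPKM, and TINCR, a transcript known from skin differentiation, had 49.2 at 1.28 FPKM. TBXA2R and TINCR were tested for RNA at all 3 times in the authors' deposited tables and were not called, and the other 8 genes were not tested.

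Several peaks in 1 locus were uncommon. A single peak was found in 925 loci, 2 peaks in 107 and 3 peaks in 16. Neighbouring peaks of a locus were a median of 4638 bases apart (139 pairs, 855 to 15700.5). The highest score of a locus exceeded its lowest by a median factor of 1.28 and by at most 4.27, in RP1-137D17.1. Among the 8 loci of 3 peaks with the highest summed score were SYT3, a synaptotagmin that senses calcium in vesicle release, with scores of 26.85, 14.4 and 16.6, and IGLON5, a neural adhesion protein, with 15.2, 29.15 and 10.75. MFNG, a Fringe enzyme that modifies Notch receptors, had 10.745, 21.2 and 14.85. FAAH, which degrades the endocannabinoid anandamide, had 16.8, 17.0 and 9.88. The other 4 were RP1-137D17.1, RP1-35C21.1, RP11-62C3.10 and TMEM105.

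**Figure D4:**
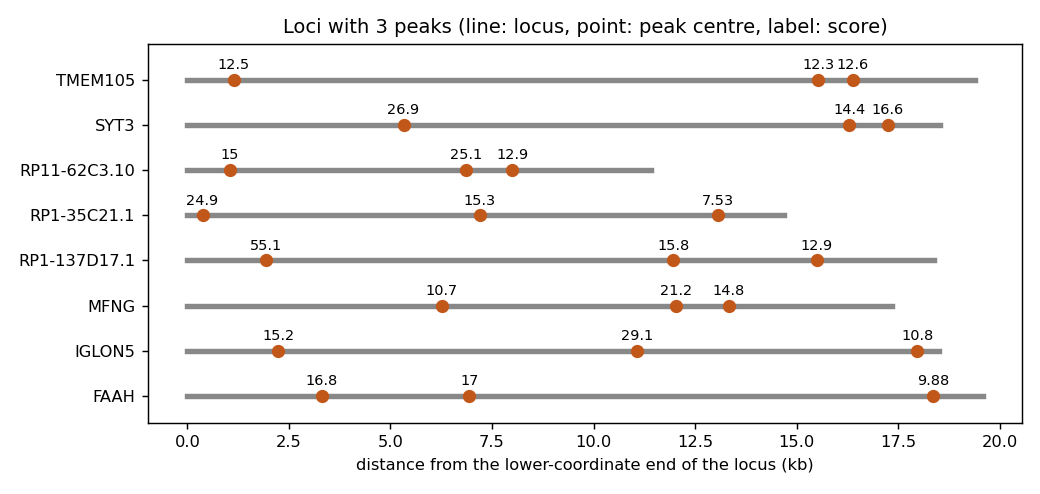
The 8 compact loci with 3 peaks and the highest summed score, drawn as lines from their lower-coordinate end (horizontal axis, kb), with a point at each peak centre and its score above it. Peaks lie along the whole length of the loci, and scores within a locus range from 12.3 to 12.615 in TMEM105 and from 12.915 to 55.15 in RP1-137D17.1.

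Most genes with a peak in a compact locus had too little RNA to be tested. Of the 1048 genes, 565 were listed at 0 FPKM in the control, 280 reached 1 FPKM, and 708 were tested at no time. This was not particular to genes with a peak. At 3 h, 307 of the 1048 were tested, against 1798 of 16725 genes of compact loci without a peak. In loci of 5000 bases or more the counts were 280 of 834 and 1003 of 3040. "Called" below means a q-value under 0.05 in the authors' deposited table of that time, and log2 fold changes are PDP over control, also written log2 changes, with the standard error (SE) implied by the test statistic there. In bulk RNA, fewer cells with a transcript and less of it per cell cannot be told apart. The control samples were the same in all 3 tables but were scaled anew in each, so a gene's control FPKM differs slightly from table to table. The 3 comparisons share their control, so agreement between times is no separate evidence.

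At 3 h no gene with a peak was called. Of 307 tested, 0 had a q-value under 0.05 in the authors' deposited table (Cuffdiff-type test), against 0.115% of all 14751 genes, and 5 had an unadjusted p under 0.05. Over all genes the share higher was 0.108% and the share lower 0.00678%. The median log2 fold change was -0.0091 (-0.030 to 0.014). Genes of compact loci without a peak gave 6 calls in 1798. In loci of 5000 bases or more there were 0 calls in 280 tested genes with a peak and 0 in 1003 without, with 5 and 23 genes at an unadjusted p under 0.05.

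At 24 h, 121 of 323 tested genes with a peak were called, 69 higher and 52 lower. The share was 37.5% (32.2 to 43.0), against a background of 17.5% of all genes (9.21% higher and 8.29% lower). Compact loci without a peak gave 28.7% (26.7 to 30.8) of 1958 and long single-gene loci 22.6% (20.8 to 24.4) of 2123, so much of the excess over all genes was shared by compact loci that hold no peak. Among loci of 5000 bases or more, the shares were 37.7% (32.1 to 43.5) with a peak and 32.4% (29.6 to 35.3) without, and these intervals overlap. In that class 63 genes with a peak were called higher and 47 lower, whereas without a peak 162 were higher and 179 lower. The median log2 fold change was 0.15 (0.046 to 0.25) with a peak and 0.067 (0.022 to 0.11) in compact loci without, beside -0.0036 over all genes. In loci of 5000 bases or more the medians were 0.11 (0.013 to 0.24) with a peak and -0.077 (-0.11 to -0.033) without, of opposite sign and with intervals that do not overlap. With at least 5 FPKM required in either condition, 37 genes with a peak were called higher and 51 lower, so the majority direction turned under that minimum. Genes without a peak were not counted at that minimum, and the medians with and without a peak were not matched for control FPKM.

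By 72 h the shares with and without a peak were close. Of 325 tested genes with a peak, 147 (45.2%, 39.7 to 50.8) were called, 103 higher and 44 lower, against 31.8% of all genes (19.0% higher, 12.8% lower). Compact loci without a peak gave 44.2% (42.0 to 46.5) and long single-gene loci 39.1% (37.0 to 41.2). In loci of 5000 bases or more the shares were 45.3% (39.5 to 51.1) and 45.6% (42.6 to 48.7). The direction was split less evenly with a peak: 31.8% (26.5 to 37.4) were higher and 13.5% (9.83 to 17.9) lower, against 25.7% (23.1 to 28.5) and 19.9% (17.5 to 22.5) without a peak, with intervals that overlap for both directions. The median log2 fold change was 0.26 (0.15 to 0.39), that of all genes 0.13. In loci of 5000 bases or more the medians were 0.26 (0.10 to 0.39) with a peak and 0.12 (0.066 to 0.17) without, with overlapping intervals.

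**Figure D5:**
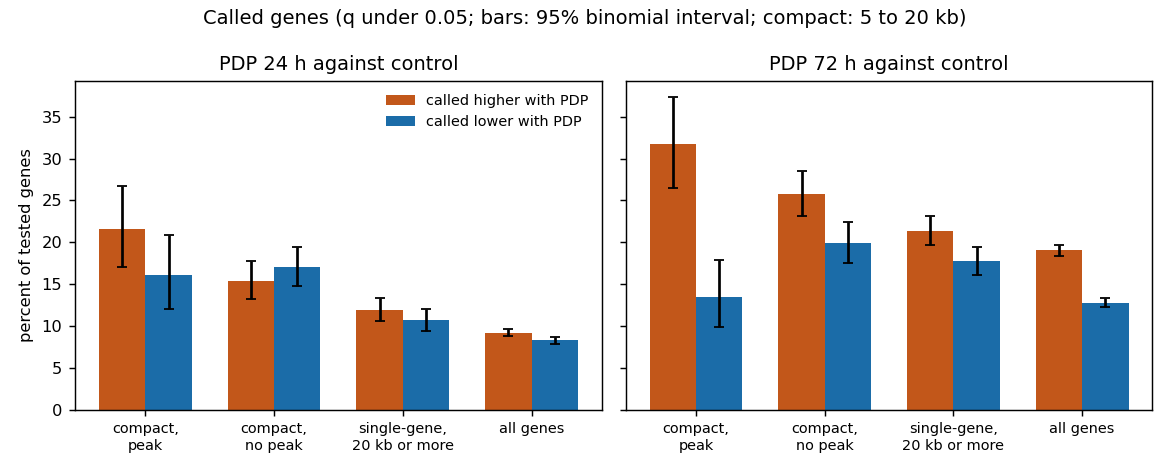
Percent of tested genes called higher or lower with PDP at 24 h (left) and 72 h (right), for compact loci of 5000 bases or more with and without a peak, single-gene loci of 20000 bases or more, and all genes, with bars for the 95% exact binomial interval. At 72 h, 31.8% of the genes with a peak are called higher and 13.5% lower, beside 19.0% and 12.8% of all genes.

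Genes called higher at 24 h had higher peak scores in point values than genes called lower. At 24 h the highest peak score of a gene had a median of 13.3 (11.6 to 14.8) in genes called higher, 10.6 (9.54 to 11.7) in genes called lower and 12.1 (11.6 to 12.9) in those not called. At 72 h the medians were 12.7 (11.8 to 14.6), 11.5 (9.72 to 12.7) and 11.96 (11.3 to 12.6), and the intervals of higher and lower genes overlapped at both times, at 24 h only at their edges. Of 202 genes tested at 24 h with a peak above the median score, 49 had an increase call and 24 a decrease call. The full set of 323 tested genes with a peak gave 69 and 52. Over all genes the shares were 9.21% for increases and 8.29% for decreases. Genes with only lower-scoring peaks were not counted apart, so a difference in direction between score groups was not tested.

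The largest increases were in genes that were low in the control. TBX6, a T-box factor of early mesoderm, went to 2.27 FPKM by 24 h against 0.462 in the control (log2 change 2.29, SE 0.61) and to 4.07 FPKM by 72 h against 0.431 (3.24, SE 0.60). Its peak (chr16:30089380-30090070, score 16.45) lay 2162 bases from the upper end of its 6095-base locus. FAM131B rose to 2.40 FPKM by 24 h against 0.496 in the control and to 3.51 FPKM by 72 h against 0.463. RASD2, a Ras-like GTPase known from the striatum, had the largest rise at 24 h, from 0.172 to 1.303 FPKM (2.92, SE 0.68), with a peak of score 21.65. USH1G, a scaffold protein of inner ear hair cells, rose from 0.383 to 2.41 FPKM. PIANP, whose promoter match is printed above and which has a peak of score 26.35, rose to 1.24 FPKM by 24 h against 0.327 in the control and to 2.18 FPKM by 72 h against 0.306, with SEs of 1.78 and 1.995 beside log2 changes of 1.93 and 2.83. PLPP7, HES2 and CARMIL3 complete the 8 largest increases at 24 h, with log2 changes of 2.34, 1.98 and 1.92.

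At 72 h the increases also took in genes with more RNA. TCTE3, a dynein light chain gene, went from 2.25 to 17.0 FPKM (log2 change 2.91, SE 0.32), and GFI1, a zinc-finger repressor of blood cell development, from 1.52 to 7.78 FPKM (2.36, SE 0.53). GRB7, an adaptor of receptor tyrosine kinases, was called from 0.117 to 1.97 FPKM, but its SE of 4.62 exceeded its log2 change of 4.07. HIST1H2AC, a histone H2A gene with near-identical copies that could share its reads, went from 0.505 to 3.17 FPKM.

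The 8 largest decreases at 24 h were in genes well expressed in the control and ran from -0.92 to -1.09 on the log2 scale. Naming asked for an FPKM of 1 in either condition, so a named decrease had to start at 1 FPKM or more. A named increase did not, so the contrast in control level follows in part from that rule. SFPQ, an RNA-binding splicing factor, fell from 322 to 164 FPKM at 24 h (log2 change -0.97, SE 0.31). DNTTIP2, a nucleolar protein gene, fell from 51.2 to 24.2 FPKM (-1.08, SE 0.24), with a peak of score 21.95. SIX2, a factor of kidney progenitors, fell from 30.3 to 15.5 FPKM, and BRPF1, a scaffold of histone acetyltransferase complexes, from 19.8 to 9.30 FPKM. MUL1, a mitochondrial ubiquitin ligase, fell from 14.4 to 7.39 FPKM. SRSF8, an SR-type splicing factor closely related to SRSF2, fell to 7.59 FPKM by 24 h against 15.5 in the control and to 4.97 FPKM by 72 h against 14.5, and how reads were divided between the relatives was not tested.

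Deeper falls were seen at 72 h. C1orf216 fell from 7.22 to 0.991 FPKM (log2 change -2.87, SE 0.48) and TMEM127, a membrane protein that restrains mTOR signalling, from 11.3 to 2.50 FPKM (-2.17, SE 0.34); both were also called lower at 24 h, at -0.92 and -0.97. CDX2, a factor of intestinal identity, fell from 16.0 to 5.05 FPKM, and EN2, an engrailed homeobox factor with a peak of score 18.35, from 32.3 to 10.6 FPKM (-1.61, SE 0.22). SLC35C1, the Golgi transporter of GDP-fucose, fell from 7.42 to 2.18 FPKM, and PARS2, the mitochondrial prolyl-tRNA synthetase, from 8.34 to 2.51 FPKM. RP11-27I1.4, with 2 peaks, fell from 7.36 to 2.36 FPKM (-1.64, SE 0.81).

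Genes with a printed sequence or with 3 peaks gave both calls and no calls. ETS2 was at 14.04 FPKM in the control and 11.0 with PDP at 24 h, and at 13.1 and 13.8 FPKM at 72 h, with no call. HES2, a basic helix-loop-helix repressor, rose to 3.08 FPKM by 24 h against 0.779 in the control and to 2.25 FPKM by 72 h against 0.727 (SE 0.90 at both times, log2 changes 1.98 and 1.63). SYT3 was called at 72 h alone, from 2.63 to 6.46 FPKM (1.295, SE 0.42). IGLON5 was at 0.801 FPKM in the control and 0.792 with PDP at 24 h, and at 0.748 and 0.939 FPKM at 72 h, with no call. SHISA7 was not tested, and SSTR3 and IL36RN were listed at 0 FPKM in the control.

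Gene families differed in how many of their compact loci held a peak. Solute carriers, the membrane transporters of ions and metabolites (here those with an A between the numbers of the symbol, which leaves out SLC35C1), had 20 peaks in 15 of 42 compact loci, or 43.7 per Mb (26.7 to 67.5), above the 20.5 per Mb of all compact loci. Their loci sum to 0.458 Mb and are longer than most. Compact loci of 10000 to 20000 bases held 22.98 per Mb (21.3 to 24.8), with a peak in 27.4% of them. SLC25A41 (score 33.35), SLC17A7 (31.9) and SLC34A1 (27.05) had the highest scores among them. SLC17A7, which loads glutamate into synaptic vesicles, rose to 4.04 FPKM by 24 h against 1.44 in the control and to 4.92 FPKM by 72 h against 1.34 (log2 change 1.87, SE 0.40). SLC4A3, an anion exchanger with 2 peaks, rose from 1.41 to 2.76 FPKM at 24 h and reached 4.01 FPKM against 1.32 at 72 h. SLC22A31 was called lower at 72 h, from 4.17 to 1.89 FPKM. Of 8 solute carriers with a peak that were tested, calls at 24 h numbered 2 higher and 1 lower (9.21% and 8.29% of all genes), and those at 72 h 3 higher and 1 lower (19.0% and 12.8% of all genes).

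Keratin genes, filament proteins of epithelia, had 9 peaks in 8 of 43 compact loci (30.8 per Mb, 14.1 to 58.4), led by the pseudogene KRT42P (48.7) and by KRT9 (15.24), and none of the 8 was tested for RNA. Genes of the homeobox list had 5 peaks in 4 of 42 loci (22.1 per Mb, 7.17 to 51.6). That list is partial and leaves out other homeobox genes with a peak, such as CDX2. EN2 and SIX2 were called lower at 24 h and 72 h, HOXB13 was called higher at 24 h (3.54 to 5.60 FPKM), and SIX3, with 2 peaks, was not tested. Potassium channels had 3 peaks in 2 of 16 loci (KCNK6 and KCNK17). Mitochondrial ribosomal protein genes had 2 in 2 of 26 (MRPS10 and MRPS15), and histone genes 2 in 2 of 75 (HIST1H2AC and HIST1H4H). FOXI2, HES2 and CLDN19 held the only peak of the forkhead, basic helix-loop-helix and claudin lists, which have 22, 29 and 11 compact loci.

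Several families held no peak. Olfactory receptor genes had none in 294 compact loci, with a 95% exact upper bound of 10.9 per Mb, below the density of all compact loci; their loci sum to 0.337 Mb and are therefore short, and density also fell with length. Cytosolic ribosomal protein genes had none in 23 loci (up to 32.6 per Mb), immediate early genes none in 17 (up to 43.3) and heat shock genes none in 8 (up to 71.2), and at these sizes a density of 20.5 per Mb would not be detectable as different. SOX, hypoxia-induced and metallothionein genes had none in 6, 2 and 10 loci.

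Among 30 genes whose promoter G-quadruplexes are well known, 8 were in compact loci and 1 of these, CDKN1A, held a peak. CDKN1A encodes the cyclin-dependent kinase inhibitor p21. Its peak (chr6:36681366-36681768, score 11.7) lay 5772 bases from the upper end of a 10880-base locus, 2957 bases from the promoter match printed above. CDKN1A was at 8.46 FPKM in the control and 8.36 with PDP at 3 h, rose to 13.9 FPKM by 24 h against 8.78 in the control (log2 change 0.66, SE 0.25) and to 17.8 FPKM by 72 h against 8.20 (1.12, SE 0.28), with q-values of 0.00225 and 0.000393 in the authors' deposited tables.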

How the data were processed

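Per the submitters' processing notes, the tools, with no role given, were HISAT2 2.0.5, Cufflinks 2.2.1, Bowtie2 2.2.9 and HOMER 4.9.1, with Trim Galore 0.4.4, Picard and SAMtools 1.3.1 also listed, on GRCh38.p7; their settings, and how input entered peak calling, are not given in the sources used here. Peaks carry a score, taken as deposited from a list that the authors merged over both replicates. The authors' deposited FPKM are pooled per condition, the p-value and q-value are those of the authors' deposited Cuffdiff-type tables, and the log2 fold change was recomputed from the authors' deposited FPKM. The SE is the log2 fold change over the test statistic, itself a score that the authors deposited.

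Peaks were placed by their centre in loci of the 3 h table. Intervals are exact Poisson, exact binomial (Clopper-Pearson), exact conditional binomial for ratios and order-statistic for medians, at 95%, with no p. Placement of peaks in loci, the density ratio and the median interval were tested on simulated data, and the pattern search on short test strings. The other steps were not tested in this way. Distances are in bases, and locus starts were shifted to count from 1. RefSeq tables are of GRCh38.p14.

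Members, gene lists and settings were chosen with earlier results of these data known. Named genes were the 10 highest-scoring peaks, the 8 loci with most peaks (ties by summed score), the 8 largest called increases and decreases at each time where either condition reached an FPKM of 1, and up to 3 top-scoring and 3 called members of each of 18 families. The result of 1 family is not reported here. Genes outside this rule that were named after their values were seen are UBE2J2 and APOL6 (at the length limit) and the 7 genes with a peak on a promoter window. Software was SciPy 1.17.1, pandas 2.3.3, NumPy 2.4.6 and Matplotlib 3.10.9 under Python 3.11.15.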

Additional observations from a re-analysis of the deposited data

How the results depend on the processing

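No paired analysis was possible because the files hold 1 merged peak list and 1 pooled value per gene and condition, and for the same reason no replicate could be left out. The density of 20.5 peaks per Mb became 22.0 when any overlap of 1 base placed a peak, 18.1 for loci under 10000 bases, 12.2 for peaks above the median score and 22.1 for protein-coding genes. The share of loci with a peak (5.90%) became 6.37%, 3.19%, 3.59% and 14.8% under the same settings and 7.78% for loci under 30000 bases. The share of peaks within 1000 bases of an end (21.8%) became 27.1% by overlap, 38.8% under 10000 bases, 16.7% under 30000 bases and 14.1% for protein-coding genes, and 9.44% and 42.7% with windows of 500 and 2000 bases. Shorter loci hold more of their bases near an end, and fewer peaks lie above the median score by construction. Gene type was known for 64.6% of compact loci, so the protein-coding values leave out any such gene without a known type. Calls at 24 h (121 of 323 tested) became 72 at q under 0.01. They became 41 when a log2 change of 1 or more in either direction was also required (37 higher, 4 lower). Under 10000 bases they were 49 of 112 tested, and for genes with a peak above the median score 73 of 202 tested. Calls at 72 h (147 of 325 tested) became 77 under the log2 change requirement and 62 of 114 tested under 10000 bases. Fewer genes were tested in these subsets, so a lower count there is not a lower share. Over all genes 17.5% were called at 24 h and 31.8% at 72 h. An FPKM minimum of 5 gave 37 higher and 51 lower calls among 221 tested genes at 24 h, in place of 69 and 52. Calls at 72 h became 98 of 205 tested for genes with a peak above the median score, 108 at q under 0.01 and 111 of 217 tested at that FPKM minimum. These 4 results and 20 others kept to within 1.5 times the reported count or inside the reported interval. Loci of 5000 bases or more were an alternative added after seeing the data. Unknown read depth limits all of these values.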
